A study of Mus musculus with 24 samples.

Results

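The pyruvate dehydrogenase regulators described here are the 4 kinases Pdk1, Pdk2, Pdk3 and Pdk4, the 2 catalytic phosphatases Pdp1 and Pdp2, and the E1 subunits Pdha1 and Pdhb. The family was chosen on an earlier result of these data, a higher Pdk4 value in 1 of the comparisons below, and its members were then taken by name. Each of the 8 genes was named by exactly 1 probe set of the array, so the family covered 8 of 19572 probe sets with a single gene name and 8 of 19505 genes. All 8 were measured and fitted in every comparison, with no filter on low values. Some differences are given below as a description with no test.

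RNA was measured in 24 samples of the outbred mouse strain ICR-CD1 on single-colour arrays, with 1 array per sample and 6 groups of 4. At embryonic day 7.5 (ED7.5) and embryonic day 14.5 (ED14.5) the material was labelled whole embryo, and at postnatal day 7.5 (PD7.5) it was liver. At each age, 4 samples were labelled control and 4 were labelled SL (obese), and the series describes them as grandoffspring of control and of obese mice. The sources used here do not spell out SL, and they name neither the litter nor the grandfather of a sample, so p-values measure only the spread between these samples, which may be technical. All animals shared the strain, and no diet, drug or engineered allele of the sampled animals themselves is named in the labels.

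The pyruvate dehydrogenase complex turns pyruvate into acetyl-CoA inside mitochondria and so commits carbon from glucose to oxidation or to fat synthesis. The kinases phosphorylate the E1 alpha subunit encoded by Pdha1 and switch the complex off, and the phosphatases remove the phosphate and switch it on again. Pdk4 is known for its induction in fasted liver, muscle and heart through PPARα, FoxO factors and glucocorticoids, which spares glucose while fatty acids are burned. Pdk1 is a known target of the hypoxia-inducible factor HIF, and Pdk2 is the broadly expressed kinase of adult liver.

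Values are log2 probe set summaries, so a difference of 1 is a doubling of signal. The level of a probe set depends on its probes, and levels are therefore compared between groups within a gene and never between genes. An array's background was the level that 75% of the 5222 probes against introns stayed under, and it ran from 5.05 to 6.53. Between 48.3% and 64.1% of the genes lay above background on each array, and the 2 arrays with the highest background were ED7.5 control replicate 2 at 6.53 and ED14.5 control replicate 1 at 6.51. The labelled material was set against marker genes. All 12 hepatocyte markers lay above background on every ED14.5 array and every liver array. In control they averaged the 98.3 percentile of all genes at ED14.5 and the 99.7 percentile in PD7.5 liver. The 5 erythroid markers averaged the 98.4 and the 81.3 percentile in the same 2 groups. On the ED14.5 control arrays 9 of 10 skeletal muscle markers, 8 of 9 cardiac muscle markers and 8 of 10 neuron markers lay above background on no array, so the markers of a whole embryo were largely absent and those of liver were present. At ED7.5 the 14 decidua markers averaged the 94.2 percentile of all genes in the control group, while 6 of 10 epiblast and primitive streak markers, Nanog and Sox2 among them, lay above background on no control array. The mean log2 value of 3 Y-linked genes was used as a marker of male tissue. It ran from 2.19 to 3.31 at ED7.5, from 2.45 to 8.67 at ED14.5 and from 8.08 to 8.82 in liver. ED7.5 therefore differed from the later ages in tissue. ED14.5 and PD7.5 both carried liver markers and differed in erythroid markers. Age, tissue, cell make-up and the Y-linked score cannot be told apart in comparisons between ages. In bulk samples, fewer cells of a type and less RNA per cell cannot be told apart either.

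The start regions of Pdk1, Pdk3 and Pdk4 are shown because these kinases had the 3 largest differences between ages in the family, each with its own order of the groups. The windows are RefSeq sequence of the build GRCm38.p6, from 250 bases before to 50 bases after the gene's start, written 5′ to 3′ in the direction of transcription. Pdk1 is on the plus strand of chromosome 2, Pdk3 on the minus strand of chromosome X and Pdk4 on the minus strand of chromosome 6. Capitals mark matches on either strand to the HIF cores ACGTG and GCGTG, the GC box GGGCGG and the CCAAT box CCAAT.
Pdk1, chr2:71872974-71873273: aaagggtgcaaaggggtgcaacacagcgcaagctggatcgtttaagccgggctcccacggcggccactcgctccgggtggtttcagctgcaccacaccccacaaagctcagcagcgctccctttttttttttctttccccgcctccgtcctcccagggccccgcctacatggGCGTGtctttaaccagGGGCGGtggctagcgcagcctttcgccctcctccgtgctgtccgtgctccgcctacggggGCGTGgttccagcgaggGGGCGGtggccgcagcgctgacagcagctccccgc
Pdk3, chrX:93832101-93832400: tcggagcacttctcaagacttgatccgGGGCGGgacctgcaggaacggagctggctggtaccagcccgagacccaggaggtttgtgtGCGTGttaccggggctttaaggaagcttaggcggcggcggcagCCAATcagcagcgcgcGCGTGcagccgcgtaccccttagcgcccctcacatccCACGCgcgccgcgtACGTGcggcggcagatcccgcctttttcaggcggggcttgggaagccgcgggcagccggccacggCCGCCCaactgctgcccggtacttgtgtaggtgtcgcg
Pdk4, chr6:5496229-5496528: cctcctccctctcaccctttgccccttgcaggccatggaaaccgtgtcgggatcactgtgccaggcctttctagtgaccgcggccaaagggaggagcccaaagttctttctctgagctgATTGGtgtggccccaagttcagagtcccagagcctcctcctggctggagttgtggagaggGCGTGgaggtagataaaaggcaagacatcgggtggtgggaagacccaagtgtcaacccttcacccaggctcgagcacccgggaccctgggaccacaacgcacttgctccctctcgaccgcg
The Pdk1 window held GCGTG 2 times and GGGCGG 2 times. The Pdk3 window held ACGTG 1 time, GCGTG 3 times, GGGCGG 2 times and CCAAT 1 time. The Pdk4 window held GCGTG 1 time and CCAAT 1 time, and it had 12 CpG dinucleotides against 25 in Pdk1 and 35 in Pdk3. These letters are common: over 32851 such windows, 19.6% held ACGTG, 32.4% GCGTG, 35.7% GGGCGG and 37.4% CCAAT. The nuclear receptor half-site AGGTCA (in 16.3% of windows), the forkhead site TGTTTAC (3.65%) and the TATA box TATAAA (13.6%) were searched too, and 0 members held any of them in this window. ACGTG read on both strands overlaps itself in CACGTG, which occurred in Pdk2 and Pdp2. Windows were given for 7 of the 8 members, all but Pdp1, and Pdk1 and Pdk2 each had 2 windows in the table, of which 1 was read. A match is a description of the sequence and not a binding site.

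Pdk4 had its lowest values in ED14.5 control material. The 4 ED14.5 control arrays read 6.07, 6.03, 6.28 and 6.46, and 3 of them lay above background. The 4 ED14.5 SL arrays read 7.20, 7.27, 7.91 and 7.28, all above background. Every SL array lay above every control array at this age, with group means of 7.42 ± 0.33 and 6.21 ± 0.20 (SD, n = 4 each). At ED7.5 the control arrays read 8.09, 7.60, 7.75 and 7.91 and the SL arrays 7.65, 7.17, 7.96 and 7.79. In liver the 4 control arrays lay between 7.99 and 8.17, while the SL arrays read 8.06, 8.09, 8.20 and 8.11. At both of those ages the groups overlapped, and in the order of the 6 group means the neighbours overlapped everywhere except between ED14.5 control and ED14.5 SL.

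Pdk1 was lowest at ED7.5 and highest at ED14.5, the age at which Pdk4 was lowest in control. The ED7.5 arrays read 7.62, 6.99, 7.09 and 7.85 in control and 7.30, 7.54, 7.40 and 7.30 in SL. At ED14.5 they read 9.22, 9.67, 9.67 and 9.71 in control and 10.16, 9.84, 10.01 and 9.90 in SL. In liver they read 8.31, 7.98, 8.25 and 8.30 in control and 8.79, 8.90, 8.81 and 8.73 in SL. The lowest SL array lay above the highest control array at ED14.5 and again in liver, whereas the ED7.5 groups overlapped. From liver control upward, none of the neighbouring groups overlapped.

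Pdk2 rose stepwise over the 3 ages in both lines. Its control arrays read 7.96, 7.66, 8.18 and 7.87 at ED7.5, then 8.32, 8.57, 8.48 and 8.78 at ED14.5, then 9.47, 9.46, 9.68 and 9.80 in liver. Its SL arrays read 8.13, 8.22, 8.02 and 8.06, then 8.42, 8.36, 8.64 and 8.79, then 9.57, 9.73, 10.01 and 9.20. Control and SL overlapped at each age, and the 3 ages did not overlap with each other in either line.

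Pdk3, an X-linked kinase, was present at ED7.5 and ED14.5 and not above background in PD7.5 liver. At ED7.5 it read between 7.58 and 7.84 in control and between 7.56 and 7.77 in SL, and at ED14.5 between 7.80 and 7.95 in control and between 7.84 and 8.04 in SL. The liver arrays read 5.79, 5.86, 5.14 and 5.97 in control and 5.13, 5.83, 5.08 and 4.76 in SL. Of these 8 liver arrays 0 lay above their background, so liver values are only a bound.

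The phosphatases had narrower ranges of group means than the kinases. Pdp1 had group means from 7.60 in ED14.5 control to 7.88 in ED14.5 SL, and every pair of neighbours in the order of its 6 groups overlapped. Its ED14.5 arrays read 7.32, 7.65, 7.73 and 7.71 in control and 8.05, 7.71, 7.96 and 7.81 in SL, so the lowest SL array lay inside the control range. Pdp2 was dim in the embryonic stages, with 3 of 4 arrays above background in ED7.5 control and in ED14.5 SL. It read 7.56, 7.26, 7.12 and 6.63 in liver control and 7.20, 7.29, 7.41 and 7.10 in liver SL. The lowest liver control array therefore overlapped with ED14.5 control, which reached 6.66.

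The E1 subunits were the most even members between replicates. Their pooled SD within groups was 0.117 for Pdhb and 0.137 for Pdha1, at the 5.74 and 10.7 percentiles of all genes, where the median gene had 0.257. The other 6 members had pooled SDs from 0.214 to 0.266. Pdha1 stepped down with age, with control arrays of 10.57, 10.45, 10.59 and 10.42 at ED7.5, of 9.85, 9.85, 10.00 and 9.97 at ED14.5 and of 8.79, 8.69, 8.89 and 8.99 in liver. Its SL arrays lay between 10.28 and 10.66, between 9.90 and 10.14, and between 8.54 and 9.02 at the same ages, and no 2 ages overlapped in either line. Pdhb, which encodes the partner subunit E1 beta, moved little, from a group mean of 11.10 ± 0.18 in ED7.5 control to 10.71 ± 0.11 (SD, n = 4 each) in liver SL.

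**Figure D1:**
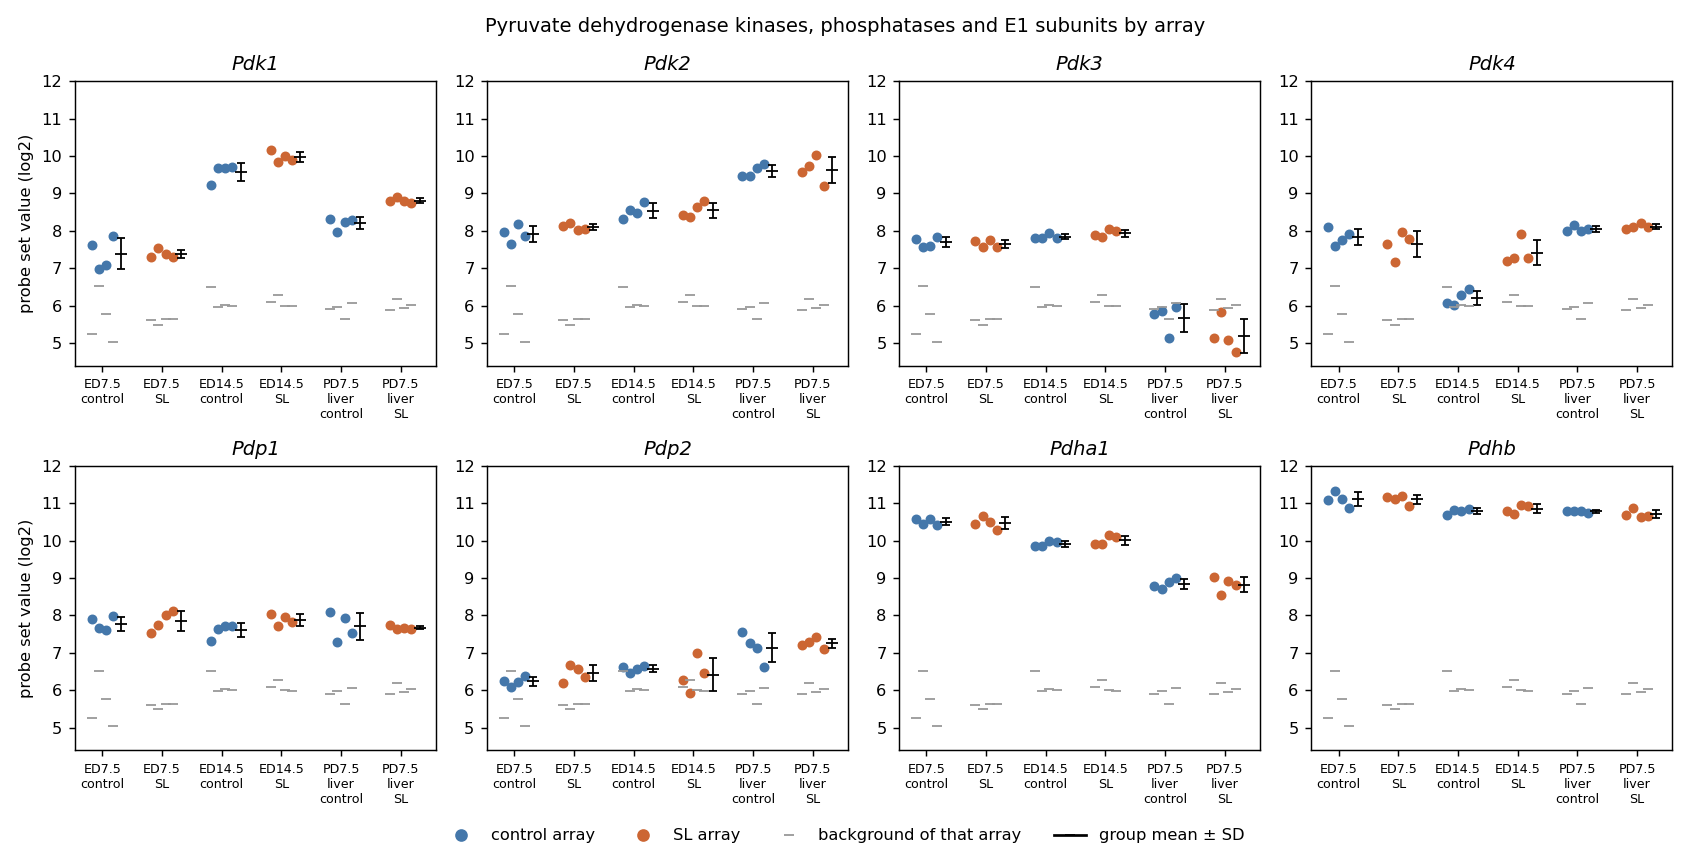
Log2 probe set values of the 8 members on all 24 arrays, by group. Points are arrays (blue control, orange SL), grey dashes are the background of that array, and black bars are the group mean ± SD of 4 arrays. Pdk4 is lowest in ED14.5 control, Pdk1 is highest at ED14.5, Pdk3 falls below background in liver, and Pdha1 steps down over the 3 ages.

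The SL and control groups were compared at each age to ask how the expression of these genes differed with the grandfather's line. The ED7.5 material was high in decidua markers and low in epiblast markers, so its values do not describe the embryo alone. This holds for the ED7.5 comparison and for differences of the SL effect that contain it. At ED14.5, where the family was chosen on the Pdk4 value, differences are given as a description with no test. Pdk4 was 1.20 higher in log2 in SL than in control (SE 0.17), a 2.31-fold difference in means. Pdk1 was 0.41 higher (SE 0.13), a 1.33-fold difference. Groups did not overlap for Pdk4, whose value chose the family, or for 1 of the other 7 members, Pdk1. Of all genes 7.98% had groups that did not overlap and 0.0513% passed an adjusted p of 0.05 in this comparison, and nothing is read from the members' count. Just below them, Pdp1 was 0.28 higher (SE 0.13) with overlapping groups. Pdp2 was 0.16 lower (SE 0.20) and Pdk2, Pdk3, Pdha1 and Pdhb differed by between 0.01 and 0.09.

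The size of the Pdk4 difference leaned on SL replicate 3, which at 7.91 was the highest array of its group. Without that array the difference was 1.04, and leaving out any other single array gave values up to 1.29. The mean log2 value of 3 Y-linked genes, a marker of male tissue in mice, was 8.65 on SL replicate 3 and between 2.45 and 3.12 on the other SL arrays. In control it was 8.67 and 8.59 on replicates 1 and 4 and between 2.47 and 2.52 on the others. With that score as a covariate the Pdk4 difference was 1.28. The skeletal muscle markers averaged between 4.81 and 5.10 in control and between 4.87 and 5.14 in SL, the cardiac muscle markers between 4.32 and 4.45 and between 4.35 and 4.63, and the adipocyte markers between 3.89 and 4.14 and between 3.89 and 4.13. Of the 10 skeletal muscle markers 7 were higher in SL, with a median of 0.07, of the 9 cardiac muscle markers 4 (median -0.00), and of the 6 adipocyte markers 3 (median 0.04). Acta1, Myog, Myod1, Myh6, Myh7, Tnnt2 and Adipoq, defining markers of those cells, were above background on 0 arrays of either ED14.5 group. The muscle creatine kinase Ckm and the intermediate filament gene Des were above background on 0 control arrays and on at least 1 SL array, so 9 of 10 skeletal muscle markers in control and 7 of 10 in SL were above background on no array. The fast muscle light chain Mylpf was above background on every ED14.5 control array. Ckm, Des and Mylpf are named here after their values were seen. Of the neuron markers 8 of 10 were higher in SL with a median of 0.18, with means from 3.97 to 4.20 in control and from 4.13 to 4.38 in SL and 8 of 10 above background on no array, and of the erythroid markers 1 of 5 was higher with a median of -0.12, with means from 11.7 to 11.8 in control and from 11.6 to 11.7 in SL. Their part in the Pdk4 difference was not tested.

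In PD7.5 liver the member that stood apart was Pdk1. It was 0.60 higher in log2 in SL than in control (SE 0.13, 95% interval 0.31 to 0.88), a 1.51-fold difference, with 4 of 4 SL arrays above every control array. That is a larger distance than the spread within either group, whose SDs were 0.16 and 0.07. The adjusted p from limma over all 19505 genes was 0.509, so Pdk1 did not pass. Of all genes 0% passed in this comparison, with 1543 at an unadjusted p below 0.05, and of the members 0 passed and 1, Pdk1, had an unadjusted p below 0.05. Pdk1 was also the 1 member of 8 whose groups did not overlap, where 4.43% of all genes did so. Leaving out any single array left the difference between 0.52 and 0.63.

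The other members did not pass in liver. Pdk4, which lay apart at ED14.5, differed by 0.07 here (95% interval -0.19 to 0.32). Pdk2 differed by 0.03 (-0.39 to 0.44), Pdp1 by -0.04 (-0.44 to 0.36) and Pdp2 by 0.11 (-0.33 to 0.54). For the E1 subunits the differences were -0.02 (-0.34 to 0.30) for Pdha1 and -0.07 (-0.33 to 0.19) for Pdhb. No fold is given for Pdk3, which was below background in both liver groups. In the same arrays 8 of 8 neutrophil markers were higher in SL than in control with a median of 0.41, their mean running from 8.54 to 9.44 in control and from 9.36 to 9.54 in SL. Of the Kupffer cell markers 1 of 10 was higher (median -0.24), with means from 8.97 to 9.09 in control and from 8.71 to 8.98 in SL. The 5 erythroid markers were lower in SL with a median of -0.54, with means from 9.08 to 9.67 in control and from 7.96 to 9.35 in SL. No defining marker of these lists was below background on all arrays of a liver group. A quality score for how well control probes in exons stand apart from those in introns, where 1 is complete, was 0.906 to 0.920 in control and 0.897 to 0.904 in SL. The part of these shifts in the Pdk1 difference was not tested.

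At ED7.5 no member passed the test of SL against control. Of the 8 members 0 passed an adjusted p of 0.05 in limma, 0 had an unadjusted p below 0.05 and 0 had groups that did not overlap. Across all genes 0.00513% passed, 3.05% did not overlap and 1070 had an unadjusted p below 0.05. Pdk1 differed by -0.00 (SE 0.19, 95% interval -0.43 to 0.42), so a difference of the size seen in liver lay outside its interval. Pdk4 differed by -0.20 (95% interval -0.60 to 0.21), in the direction opposite to ED14.5. Pdp2 was 0.22 higher and Pdk2 0.19 higher in SL, each with overlapping groups. Of the trophoblast markers 0 of 6 were higher in SL (median -0.47), with means from 6.01 to 7.40 in control and from 5.66 to 7.07 in SL. Of the erythroid markers 0 of 5 were higher (median -0.29), with means from 5.61 to 5.73 and from 5.10 to 5.83, near background. Of the decidua markers 8 of 14 were higher (median 0.03). The part of these shifts in the ED7.5 values was not tested.

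The SL difference of Pdk4 was 1.40 larger at ED14.5 than at ED7.5 (SE 0.23) and 1.14 smaller in liver than at ED14.5 (SE 0.23). Both are descriptions with no test, since each contains the comparison on which the family was chosen. The difference between liver and ED7.5 does not contain it and was tested in a fit of all 24 arrays. There the SL difference of Pdk1 was 0.60 larger in liver than at ED7.5 (SE 0.22, 95% interval 0.14 to 1.05), with an adjusted p of 0.420 in limma. Of the 8 members 0 passed, where 0.00513% of all genes did and 1793 had an unadjusted p below 0.05. The Pdk4 value was 0.26 (95% interval -0.21 to 0.74).

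**Figure D2:**
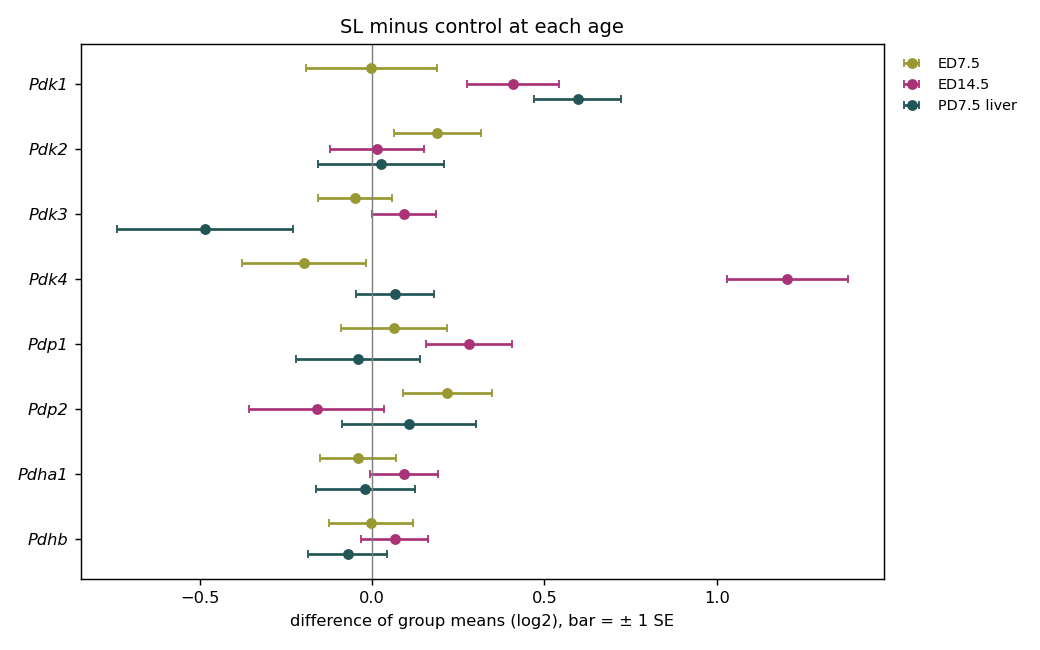
Difference in group means, SL minus control, in log2 for each member at each age, with bars of ± 1 SE from the limma fit of 8 arrays. Pdk4 at ED14.5 (1.20) lies farthest from 0, Pdk1 is above 0 at ED14.5 (0.41) and in liver (0.60), and the liver value of Pdk3 lies below background in both groups.

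The ages were compared within the control line, and for liver against ED14.5 also within the SL line. The Y-linked score also differed between the ages, and Pdk3 and Pdha1 lie on chromosome X. That score was not a covariate in these comparisons, and its part was not tested. The control comparisons share the 4 ED14.5 control arrays, which also entered the comparison on which Pdk4 was chosen, so Pdk4 is given here with no p and is left out of the counts. From ED7.5 to ED14.5 in control, 3 of the other 7 members passed an adjusted p of 0.05 higher, where 25.6% of all genes did, and 2 passed lower, where 26.3% of all genes did. Pdk1 rose by 2.18 in log2 (SE 0.21, adjusted p from limma 7.48e-06), a 4.54-fold difference. Pdk2 rose by 0.62 (SE 0.14, adjusted p from limma 0.00435) and Pdp2 by 0.34 (SE 0.11, adjusted p from limma 0.0205). Pdk4 was 1.63 lower (SE 0.14), a 3.09-fold difference. Pdha1 fell by 0.59 (SE 0.10, adjusted p from limma 0.000526) and Pdhb fell by 0.32 (SE 0.12, adjusted p from limma 0.0439). Groups did not overlap for any of these 5, nor for Pdk4. The Pdhb and Pdp2 calls were marginal: Pdhb was lost when 7 of the 8 arrays were left out in turn, with an adjusted p of up to 0.101, and Pdp2 when ED14.5 control replicate 4 was left out (0.0555). Pdk3 differed by 0.14 (95% interval -0.09 to 0.38) and Pdp1 by -0.18 (-0.48 to 0.12), and neither passed.

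From ED14.5 to PD7.5 liver in control, 2 of the 7 members other than Pdk4 passed higher and 3 lower, where 20.5% and 24.6% of all genes did. Pdk2 rose by 1.06 (SE 0.14, adjusted p from limma 0.000129), a 2.09-fold difference. Pdp2 rose by 0.57 (SE 0.18, adjusted p from limma 0.0291) with overlapping groups, and this call was lost when 6 of the 8 arrays were left out in turn, with an adjusted p of up to 0.0741. Pdk4 was 1.84 higher (SE 0.13), a 3.58-fold difference, and its liver mean of 8.05 lay near its ED7.5 mean of 7.84, with overlapping groups. Among the members that fell, Pdk3 was at least 3.85-fold lower (adjusted p from limma 5.86e-06), computed against the array backgrounds because liver gives only a bound. Pdk1 fell by 1.36 (SE 0.15, adjusted p from limma 3.42e-05) and Pdha1 fell by 1.07 (SE 0.11, adjusted p from limma 2.84e-05). Pdhb differed by -0.00 (95% interval -0.23 to 0.22) and Pdp1 by 0.11 (-0.31 to 0.53).

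The SL arrays shared no array with the control comparison, and 2 of the 7 members other than Pdk4 passed higher and 3 lower there as well, where 21.4% and 24.4% of all genes did. Pdk2 rose by 1.07 and Pdp2 by 0.83 (adjusted p from limma 0.000785 and 0.00704). Pdk3 was at least 3.79-fold lower, Pdha1 fell by 1.19 and Pdk1 fell by 1.17, with adjusted p from limma of 3.15e-06, 5.39e-05 and 1.89e-05. Pdk4 was 0.70 higher (SE 0.17) against 1.84 in the control line. These counts rest on 7 genes, and the 2 that passed higher lie near the share of all genes in both lines.

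**Figure D3:**
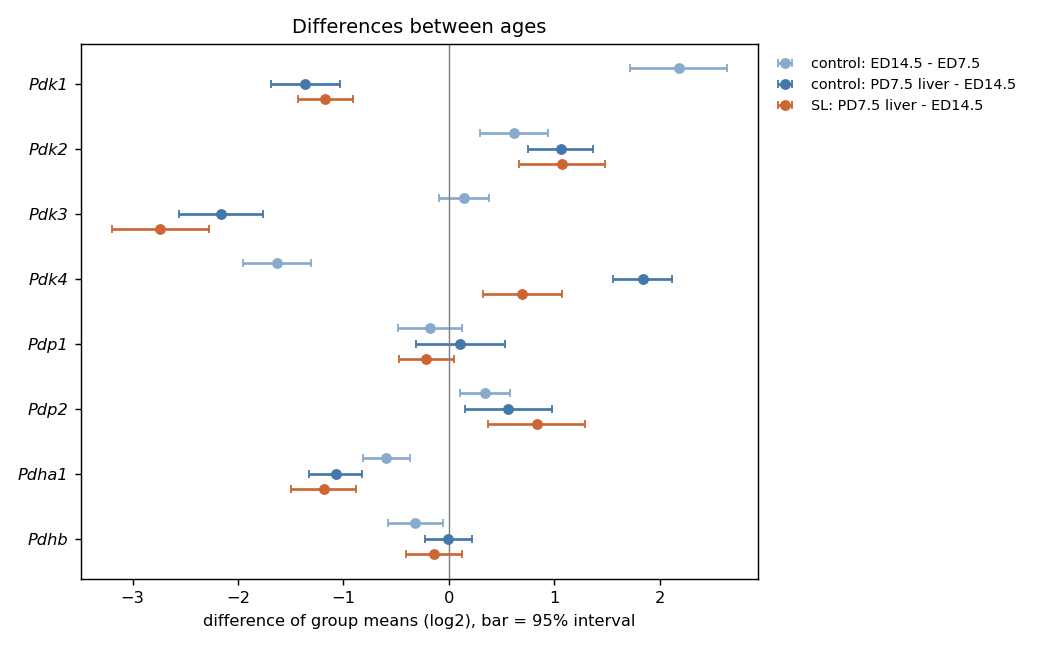
Difference in group means between ages in log2 for each member, with 95% intervals. Light blue is control ED14.5 minus ED7.5, dark blue is control liver minus ED14.5 and orange is SL liver minus ED14.5. In control, Pdk1 and Pdk4 change sign between the 2 steps in opposite ways, and Pdk2 is above 0 in all 3 comparisons. Both control steps contain the ED14.5 control arrays, which also entered the comparison on which Pdk4 was chosen. The change of sign of Pdk4 is therefore a description only. In SL, Pdk4 had group means of 7.64 at ED7.5 and 7.42 at ED14.5, with overlapping groups.

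Pairs of members were also compared across arrays. Over the 24 arrays, which fall into 3 clusters by age and share a normalization, Pearson's r was -0.93 between Pdk2 and Pdha1, -0.85 between Pdk2 and Pdk3 and 0.88 between Pdk3 and Pdha1. After each group's mean was taken away, the same 3 pairs had r of 0.43, 0.22 and -0.28. The highest r among all pairs of members in those deviations was 0.60, between Pdk1 and Pdp1. Pdk1 and Pdk4 had r of -0.48 over the arrays and 0.19 in the deviations.

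The genes most like Pdk4 over the 24 arrays, among 10700 genes above background on at least 12 arrays, were Sdr39u1 (r = 0.93), Gabarapl1 (0.89), Pex11a (0.87), Lrrc8d (0.87) and Smim19 (0.87). Gabarapl1 encodes an autophagy protein of the ATG8 family, and Pex11a a peroxisome division factor known as a PPARα target. Pex11a was above background on 0 of 4 ED14.5 control arrays. Sdr39u1 had group means of 8.11 in ED7.5 control, 7.17 in ED14.5 control, 7.83 in ED14.5 SL and 8.24 in liver control. These genes were picked for their likeness to Pdk4 over the same arrays. A shared low in ED14.5 control therefore follows from the choice and is no added evidence. The genes most like Pdk1 were Cpsf1 (0.97), Cir1 (0.97) and Acp1 (0.97). In the deviations from the group means, the genes most like Pdk4 were Spry1 (0.78), Tmem104 (0.71), Pcyt1a (0.70), Polr3g (0.69) and Slc7a7 (0.68). None of the 5 was among the 5 found over all arrays.

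The other subunits of the complex were measured beside the members. Dlat encodes the E2 acetyltransferase, Dld the E3 dehydrogenase and Pdhx the E3-binding protein. At ED14.5 these 3 differed between SL and control by -0.06, -0.01 and -0.02. In liver, Pdhx was 0.44 lower in SL (SE 0.14, adjusted p from limma 0.551) with groups that did not overlap, control reading between 7.95 and 8.11 and SL between 7.28 and 7.76. Dlat differed by -0.11 and Dld by 0.12 there, and neither passed. Between ED7.5 and ED14.5 in control Pdhx rose by 0.40 and Dlat fell by 0.37 (adjusted p from limma 0.00930 and 0.0245). Pdpr, the regulatory subunit of the phosphatase, fell by 0.55 over the same step (adjusted p from limma 0.00305) and did not pass in any SL comparison. Mpc1, a subunit of the mitochondrial pyruvate carrier, rose by 2.32 from ED14.5 to liver in control (adjusted p from limma 1.41e-07) and differed by 0.29 between SL and control at ED14.5 with overlapping groups.

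Genes of fasting and PPARα were set beside Pdk4. Of the 27 measured at ED14.5, 24 were above 0 in SL minus control with a median of 0.15, where the median of all genes was 0.00, and 1 passed an adjusted p of 0.05. Among the 24 were Cyp4a10, Cyp4a14, Fgf21, Ucp3 and Cidec, named here after their values were seen, which were above background on 0 arrays of either ED14.5 group, with group means from 3.36 to 4.04, so the sign of their differences carries little. The gene that passed was Angptl4, an inhibitor of lipoprotein lipase, which read between 8.49 and 8.83 in control and between 9.33 and 9.62 in SL. Groups did not overlap for 9 of the 27, where 7.98% of all genes did not overlap. In liver 4 of the 27 were above 0 with a median of -0.04, 0 passed, and at ED7.5 16 of the 27 were above 0 with a median of 0.04, with 0 passed. The lists used here were written with the Pdk4 result known, and their counts are not independent evidence of a direction.

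Genes of glucocorticoids and FoxO, other known inputs to Pdk4, had 12 of 15 above 0 at ED14.5 with a median of 0.38 and 0 passed. Of the 15, 2 were above background on 0 arrays of either group. Groups did not overlap for 5 of the 15, where 7.98% of all genes did not overlap, and these 5 are named here after their values were seen. They were the insulin-like growth factor binder Igfbp1 (0.88), the clock gene Per1 (0.88), the mTOR inhibitor Ddit4 (0.87), the glucocorticoid receptor co-chaperone Fkbp5 (0.38) and the stress protein Sesn1 (0.16). At ED7.5 5 of 15 were above 0 with a median of -0.05, and in liver 9 of 15 with a median of 0.04, with 0 passed at either age. Ddit4 was 0.87 lower in SL in liver (SE 0.25, adjusted p from limma 0.523).

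Genes of HIF were set beside Pdk1. At ED14.5 5 of 18 were above 0 with a median of -0.06, and 0 passed. Groups did not overlap for 2 of the 18, where 7.98% of all genes did not overlap. They were the glycolytic regulator Pfkfb3 at -0.76 and the collagen prolyl hydroxylase P4ha1 at -0.35, named here after their values were seen. In liver 10 of 18 were above 0 with a median of 0.02, and 0 passed. From ED7.5 to ED14.5 in control 3 HIF genes passed higher and 13 lower, against 25.6% and 26.3% of all genes. Adm fell by 4.65, P4ha2 fell by 3.90 and Hk2 fell by 3.73 over that step, whereas Pdk1 rose. Hif1a itself fell by 1.42 and its relative Epas1 fell by 4.11 over that step (adjusted p from limma 2.18e-06 and 3.06e-09). Adm is also in the decidua marker list, and the decidua markers went from the 94.2 to the 42.8 percentile over the same step.

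Of 20 listed transcription factors known to act on Pdk genes, 18 were measured, and Ppard and Esrra were not. Of the 18 measured, 0 passed in any of the 3 SL comparisons and 0 had groups that did not overlap. At ED7.5, 4 of the 18 were above background on 0 arrays of either group, Ppara and Ppargc1a among them. The same held for 3 at ED14.5 and 1 in liver, so their SL differences carry little. At ED14.5 Ppara differed by -0.12, its coactivator Ppargc1a by -0.18, Foxo1 by 0.19 and Hif1a by -0.07. Between ages they changed widely: Ppara was at least 6.63-fold and Ppargc1a at least 5.90-fold higher at ED14.5 than at ED7.5 in control, and Ppara rose by a further 3.02 in liver (adjusted p from limma 6.38e-08, 1.97e-08 and 7.02e-08). Foxo1 fell by 1.45 from ED7.5 to ED14.5 and rose by 1.78 from ED14.5 to liver (adjusted p from limma 5.09e-06 and 6.51e-06). Its relatives Foxo3 and Foxo4, named here after their values were seen, did not share that order. In control, Foxo3 had group means of 9.01 at ED7.5, 10.98 at ED14.5 and 8.66 in liver. Foxo4 had 8.43, 8.35 and 6.62 in the same groups.

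The fasting and glucocorticoid genes were also compared between the ages, where many genes of any kind passed, 25.6% higher and 26.3% lower from ED7.5 to ED14.5 and 20.5% higher and 24.6% lower from ED14.5 to liver in control. From ED14.5 to liver in control 21 of 27 fasting and PPARα genes passed higher and 2 lower, with the fatty acid hydroxylases Cyp4a14 at least 29.0-fold and Cyp4a10 at least 7.49-fold higher and the carnitine transferase Cpt1a higher by 3.59. Over the earlier step 14 of the 27 passed higher and 4 lower. Of the 15 glucocorticoid and FoxO genes 6 passed higher and 9 lower from ED7.5 to ED14.5 with a median of -1.89, among them Tsc22d3 at -4.69 and Sgk1 at -4.66, and 10 passed higher and 0 lower from ED14.5 to liver, with a median of 1.47.

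Downstream of the complex, genes of the tricarboxylic acid cycle showed no passing member in the SL comparisons. In liver 1 of 15 was above 0 with a median of -0.10, and groups did not overlap for 3 of the 15, where 4.43% of all genes did not overlap. They were Cs, Sdhd and Mdh2, named here after their values were seen, at -0.27, -0.15 and -0.30. At ED14.5 7 of 15 were above 0 with a median of -0.01. Of the 15 genes of pyruvate supply and use 0 passed in any SL comparison. Over the ages Pklr, a pyruvate kinase gene, rose by 6.10 from ED7.5 to ED14.5 in control (adjusted p from limma 2.89e-10). Its group mean was then lower in liver than at ED14.5, at 10.52 against 12.22 in control and 10.09 against 12.08 in SL. The erythroid markers in control also went from the 98.4 to the 81.3 percentile over that later step, and their part was not tested. Pck1, which starts gluconeogenesis from oxaloacetate, was at least 38.8-fold higher in liver than at ED14.5 in control. Of the 6 relatives that act on branched-chain keto acids or on the phosphatase, 4 passed higher and 1 lower in liver than at ED14.5 in control, where 20.5% and 24.6% of all genes did. Ppm1k, the phosphatase of the branched-chain complex, was higher by 2.79, and Bckdk, the kinase that opposes it, named here after its value was seen, fell by 1.26 (adjusted p from limma 1.49e-07 and 1.51e-05). Of the 6 genes of lipoylation, the cofactor step that the complex needs, 0 passed in the SL comparisons. From ED7.5 to ED14.5 in control 5 passed higher, where 25.6% of all genes did, led by Glrx5 at 2.38. The erythroid markers in control went from the 41.5 to the 98.4 percentile over that step, and their part was not tested. From ED14.5 to liver in control 1 of the 6 passed higher and 3 lower, and the Glrx5 group mean went from 12.07 to 10.66.

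**Figure D4:**
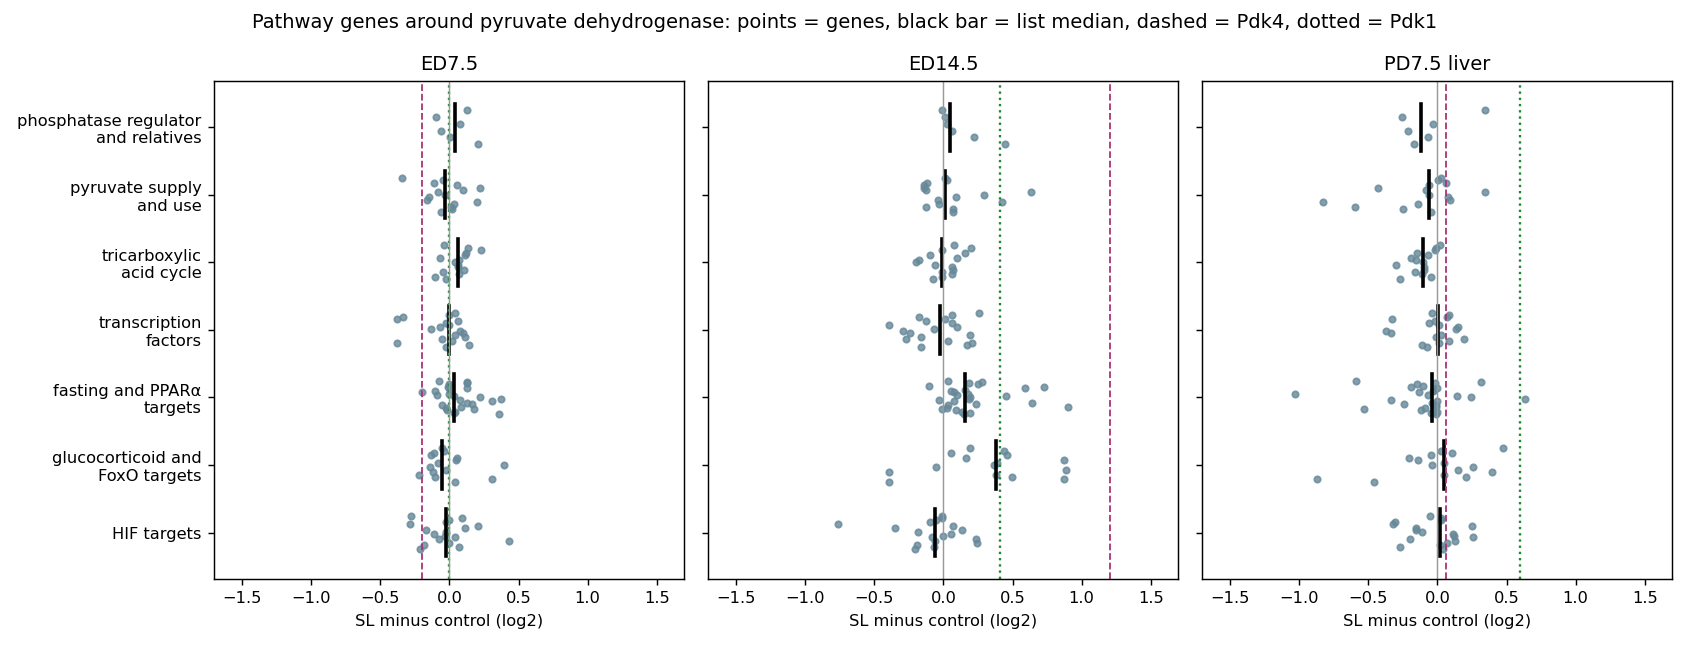
SL minus control differences in log2 of genes in 7 lists around pyruvate dehydrogenase, 1 panel per age. Points are genes, black bars list medians, the dashed line Pdk4 and the dotted line Pdk1. At ED14.5 the fasting and PPARα list (median 0.15) and the glucocorticoid and FoxO list (median 0.38) lie mostly above 0, and in liver the tricarboxylic acid cycle list has 1 of 15 genes above 0.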

How the data were processed

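Expression was measured in 24 samples, 4 in each of 6 groups taken from the sample labels. The deposited values are log2 probe set summaries, made by the authors with RMA in the oligo package per the submitters' processing notes. No version of either is stated in the sources used here, and the scale follows from the method and from the spread of the values. RMA subtracts background and normalizes quantiles, which can compress differences of dim probe sets such as Pdk4 at ED14.5 and Pdk3 in liver. No further normalization was applied. Of 29129 probe sets, 6923 were control features, and 19572 named exactly 1 gene, giving 19505 genes with the brightest probe set kept for the 55 genes that had several. Precision is limited by the number of arrays, and the median SE per gene was 0.144, 0.143 and 0.187 in log2 for SL against control at ED7.5, ED14.5 and liver.

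Each comparison of 8 arrays was fitted over all genes with limma 3.58.1 under R 4.3.3 (files read with the data.table package, version 1.17.8), two-sided, with Benjamini-Hochberg adjustment over all genes and a threshold of 0.05. The procedure was tested on simulated data. A fold against a group with all arrays below background is a lower bound. Likeness was Pearson's r. The members and lists were chosen with earlier results of these data known. The text names the 8 members always, then Dlat, Dld, Pdhx, Pdpr, Mpc1, Ppara, Ppargc1a, Foxo1 and Hif1a, up to 3 genes per list with the largest change among those that passed, and the genes most like Pdk4 (5 over the arrays, 5 in the deviations) and Pdk1 (3). Other names are stated as chosen after their values were seen. Some listed genes are not analysed here. Replicate numbers did not pair the samples, with correlations of same-numbered deviations from -0.17 to 0.12. No 2 arrays held identical values, and the highest correlation between arrays was 0.987. The alternatives were another variance model, weights per array, the 24 arrays in a joint fit, a block for the replicate number, a filter on the dimmest 33% of genes, quantile normalization of each comparison alone, the mean of several probe sets, a Y-linked score as a covariate, and each array left out in turn.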

Additional observations from a re-analysis of the deposited data

Results flagged for a closer look

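Each member was checked in each group of 4 arrays for an array far from the other 3, as the gap to its nearest neighbour over the whole range of the group, set against Dixon's 95% critical value. This held for 4 of 48 groups, where chance gives about 1 in 20. In ED14.5 control, replicate 1 was low for Pdk1 (9.22 against 9.67 to 9.71, ratio 0.912), and that array also had the highest background of its group. In the same group, replicate 3 was high for Pdk3 (7.95 against 7.80 to 7.82, ratio 0.908). In ED14.5 SL, replicate 3 was high for Pdk4 (7.91 against 7.20 to 7.28, ratio 0.879), and without it the Pdk4 difference was 1.04 in place of 1.20. In liver SL, replicate 1 was high for Pdp1 (7.74 against 7.64 to 7.65, ratio 0.920) within a range of 0.1 in log2.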

How the results depend on the processing

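Under 8 alternatives other than leaving out an array, the counts of members past the threshold were 0 at ED7.5, 0 in liver and 0 for the difference of the SL effects wherever these were run. With Pdk4 included, they were 5 or 6 for both control age comparisons and 6 for SL liver against SL ED14.5. The Pdk4 call in these counts is no test, since ED14.5 arrays entered the comparison on which the family was chosen. With the replicate block the count from ED7.5 to ED14.5 was 5 in place of 6, with Pdhb at an adjusted p of 0.0858, and it changed no other call. Replicate numbers do not pair the samples by the labels, and same-numbered deviations correlated by 0.12 at most. Pdhb over that step was also lost under quantile normalization (0.0790), and Pdp2 under the trend and robust prior (0.0682) and in the fit of all 24 arrays (0.130). Pdp2 from ED14.5 to liver in control was lost under quantile normalization (0.0542). The causes were not tested. The Pdk4 difference at ED14.5 was 1.20 to 1.28 under these settings and 1.04 to 1.29 with an array left out.

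Values near 0 changed sign. For SL minus control at ED7.5, Pdhb became 0.00214 with array weights and 0.0108 under quantile normalization, and Pdk1 became 0.0151 with the Y-linked score. In liver, Pdp1 became 0.00925 and Pdha1 0.00838 under quantile normalization, and 0.0931 and 0.0145 with the Y-linked score. For control liver minus ED14.5, Pdhb became 0.00149 under quantile normalization. With an array left out, the ED7.5 values ran from -0.135 to 0.153 for Pdk1, -0.0784 to 0.0715 for Pdhb, -0.0253 to 0.171 for Pdp1 and -0.107 to 0.0206 for Pdha1. The ED14.5 value of Pdk2 ran from -0.0634 to 0.0963. In liver the values ran from -0.0855 to 0.0738 for Pdha1, -0.103 to 0.169 for Pdk2, -0.183 to 0.0838 for Pdp1 and -0.0622 to 0.248 for Pdp2. For control liver minus ED14.5 they ran from -0.0391 to 0.0171 for Pdhb and -0.0141 to 0.253 for Pdp1. For the difference of the SL effects between liver and ED7.5 they ran from -0.0442 to 0.115 for Pdha1, -0.142 to 0.00806 for Pdhb, -0.246 to 0.0209 for Pdp1 and -0.281 to 0.0293 for Pdp2. Counts of members, with Pdk4 included as a description, ran from 4 to 6 and from 5 to 6 in the control age comparisons. Signal over background limits Pdk3 in liver, Pdk4 in ED14.5 control and Pdp2 in the embryonic stages.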
